A study of Homo sapiens with 15 samples.

Results

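The genes described here are the D and E cyclins and the CDK inhibitors of the CIP/KIP and INK4 families that act in the G1 phase of the cell cycle. They are CCND1, CCND2, CCND3, CCNE1, CCNE2, CDKN1A, CDKN1B, CDKN1C, CDKN2C and CDKN2D. These 10 genes were taken by symbol from the 57500 genes listed for each library, and all 10 passed the filter on low counts, which kept 15517 genes. RNA was sequenced from K562 cells, a human line derived from a chronic myeloid leukaemia, in 15 libraries that form 5 groups of 3, all collected at 1 h. JQ1 is a small molecule that displaces BET proteins from acetylated chromatin. JQ1-FCPF carries in its name the FCPF tag that is also part of Cas9FCPF, a tagged Cas9 introduced by transfection. The 4 treated groups had Cas9FCPF without or with sgRNA and received either compound, JQ1 or JQ1-FCPF, at 1 µM. No target of the sgRNA is stated in the labels, and the series title writes dCas9 where they write Cas9. The control libraries are labelled WT and NT, while the series text names DMSO, and the labels do not say that the control cells were transfected. Each comparison with the control therefore combines the compound with transfection and Cas9FCPF. Nothing in the labels says that the 3 libraries of a group came from separate cultures, so the tests measure the spread between these libraries, which may be technical.

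Passage from G1 into S phase depends on cyclin-dependent kinases. D cyclins bind CDK4 and CDK6 and E cyclins bind CDK2, and the active kinases phosphorylate the retinoblastoma protein, which releases E2F factors. INK4 proteins (CDKN2C, CDKN2D) bind CDK4 and CDK6 in place of the cyclin, and CIP/KIP proteins (CDKN1A, CDKN1B, CDKN1C) bind cyclin-CDK complexes and act mainly against CDK2. K562 cells proliferate under BCR-ABL signalling, and D cyclin genes and CDKN1B are known to respond to that kinase.

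Library totals ran from 12625669 to 17544518 counts, and between 2.31% and 7.46% of them came from mitochondrially encoded genes. In a principal component analysis of all tested genes, 1 library of JQ1-FCPF with sgRNA (replicate 2) lay at 32.2 on the first component (29% of the variance). Replicates 1 and 3 of its group lay at -16.7 and -14.8. The JQ1 libraries, with and without sgRNA, lay between 16.8 and 24.6. Those of the control and of JQ1-FCPF without sgRNA lay between -24.7 and -18.4. On the second component (15.5% of the variance), replicates 1, 2 and 3 of JQ1-FCPF with sgRNA lay at 40, 16.4 and 27.2. All other libraries lay between -15 and 12.5 on it. Replicate 1 of JQ1 with sgRNA had the highest mitochondrial share. Calls on the 10 genes that change without these 2 libraries are given both ways. The labels call the cells lymphoblasts. The 8 erythroid genes fixed as markers of K562 summed to between 1020 and 1680 CPM (counts scaled to a common library size) per library, whereas the 4 B cell genes summed to between 3.1 and 5.9 CPM and MS4A1 (CD20) had at most 1 count in a library.

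CCND1 (ENSG00000110092) lies on the plus strand of chromosome 11 (69641087 to 69654474), CCND2 (ENSG00000118971) on the plus strand of chromosome 12 (4273772 to 4305350) and CCND3 (ENSG00000112576) on the minus strand of chromosome 6 (41934933 to 42050357), in GRCh38. CCNE1 (ENSG00000105173) is on the plus strand of chromosome 19 (29811898 to 29824308). Among the inhibitors, CDKN1A (ENSG00000124762) is on the plus strand of chromosome 6 (36676460 to 36687339). CDKN1B (ENSG00000111276) is on the plus strand of chromosome 12 (12715058 to 12722371), and CDKN1C (ENSG00000129757) is on the minus strand of chromosome 11 (2883213 to 2885881). CDKN2C (ENSG00000123080) is on the plus strand of chromosome 1 (50960745 to 50974633), and CDKN2D (ENSG00000129355) is on the minus strand of chromosome 19 (10566462 to 10569059). All are protein-coding, and the values are counts over their exons. Whether counting used strand is not given in the sources used here, so reads from CCND1 and from LTO1, an antisense gene that shares exonic sequence with it, cannot be told apart in that overlap. The same holds for CCNE2 (ENSG00000175305) and the antisense gene INTS8.

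Promoter sequences from RefSeq (GRCh38.p14) were found for 6 of the 10 genes. Those of CCNE1 and CDKN2D are shown because these genes passed the test in opposite directions after JQ1 without sgRNA. Each stretch runs 5′ to 3′ on the strand of the gene, from base -250 before the RefSeq start of transcription to the last base before the annotated gene. Capitals mark matches on either strand to the SP1 box (GGGCGG, reverse CCGCCC) and, in CDKN2D, to an E2F motif (TTTNNCGC, reverse GCGNNAAA).
CCNE1, chr19:29811741-29811897, plus strand: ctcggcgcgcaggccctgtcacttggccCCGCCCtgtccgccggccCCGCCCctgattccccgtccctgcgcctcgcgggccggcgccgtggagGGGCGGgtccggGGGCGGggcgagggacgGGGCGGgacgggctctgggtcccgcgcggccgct
CDKN2D, chr19:10569060-10569229, minus strand: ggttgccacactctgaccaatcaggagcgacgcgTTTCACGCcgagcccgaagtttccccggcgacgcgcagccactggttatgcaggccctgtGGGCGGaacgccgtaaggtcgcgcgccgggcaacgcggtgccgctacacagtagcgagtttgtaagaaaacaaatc
The CCNE1 stretch of 157 bases was 83.4% G and C and held 5 SP1 boxes. In the CDKN2D stretch of 170 bases, 62.4% of bases were G or C, and it held 1 SP1 box and 1 E2F match. Over the whole 250 bases, CCNE1 had 7 SP1 boxes and CDKN2D had 2, and 42.6% of all 35116 promoters in the table held at least 1. The E2F letters occurred in 5.9% of these promoters. Neither promoter held the E-box CACGTG, the N-box CACNAG (reverse CTNGTG) or TATAAA (reverse TTTATA) in those 250 bases, which 6.3%, 32.0% and 10.7% of all promoters did. These matches are letters in a window and do not show that a factor is bound.

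K562 cells expressed CCND3 far above the other D cyclins. Per kilobase of exon, the control libraries had 64.9 ± 3.6 CPM of CCND3 (SD, n = 3, as for all means below), 21.9 ± 1.41 of CCND2 and 10.4 ± 0.42 of CCND1. CDKN2C, which encodes p18INK4c, was the most abundant inhibitor at 22.8 ± 2.28 CPM per kilobase and overlapped CCND2. CCNE1 followed at 14.1 ± 0.649 and CDKN1B at 13.6 ± 0.463, and their ranges of mean ± SD overlapped. CDKN1C stood at 12.1 ± 1.15, with a range of mean ± SD that reached that of CDKN1B, and CDKN1A at 5.86 ± 0.736. At the bottom, CDKN2D had 3.76 ± 0.568 and CCNE2 had 2.05 ± 0.108 CPM per kilobase. CCND3 was above 97.6% of tested genes by mean CPM and CCNE2 above 35.2%. The other INK4 genes, CDKN2A and CDKN2B, gave almost no reads: CDKN2B had 0 counts in all 15 libraries, and CDKN2A and its neighbour MTAP had at most 1 count in a library. None of these 3 was tested.

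**Figure D1:**
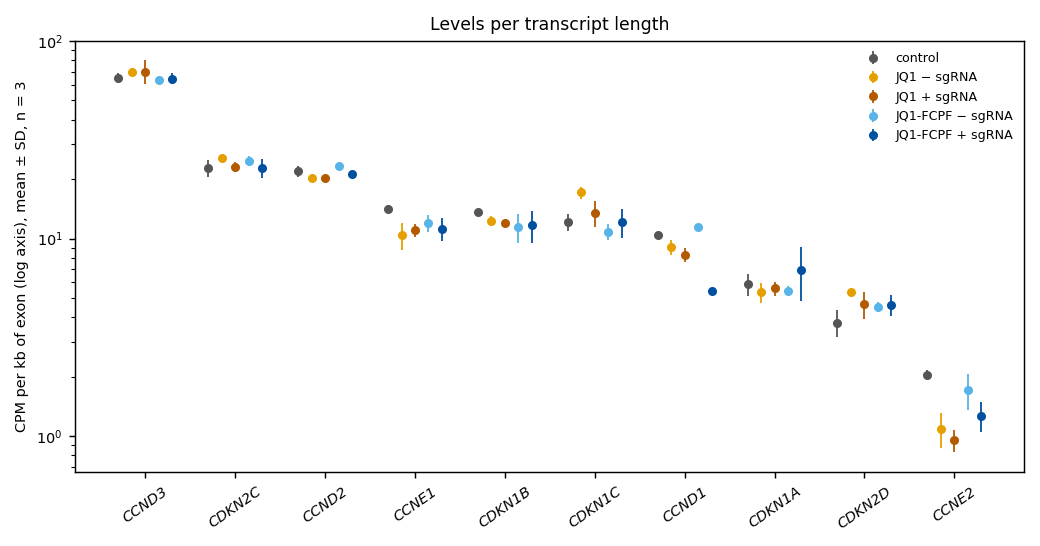
Mean level of each gene in CPM per kilobase of exon (log axis) with SD over the 3 libraries of each group, ordered by the control mean. CCND3 is highest at 64.9 in the control and CCNE2 lowest at 2.05, while CCND1 after JQ1-FCPF with sgRNA (5.45) lies below its other 4 groups.

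After JQ1-FCPF, the sgRNA went with a lower level of 1 gene of the 10, CCND1, whereas after JQ1 it went with no change that passed the test. Calls rest on edgeR's quasi-likelihood test with Benjamini-Hochberg adjustment over all 15517 genes, and an adjusted p under 0.05 counts as called. For JQ1-FCPF with against without sgRNA, 1 of 10 members was called (lower), where 6.25% of all tested genes were called. The members' median log2 fold change was -0.04 and that of all genes 0.01. For JQ1 with against without sgRNA, 0 of 10 were called by edgeR, where 0.0129% of all genes were. DESeq2 also called 0, and 1 member had an unadjusted p under 0.05. The difference between these 2 sgRNA effects, called the interaction below, passed for 1 of 10 members, where 0.786% of all genes passed.

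Against the control, both E cyclins were lower and 1 inhibitor of each family was higher after JQ1 without sgRNA. This made 4 of 10 members called, 2 higher and 2 lower, where 12.3% of all genes were called. The members' median was -0.13 against 0.00 over all genes. Leaving out 1 library left between 1 and 3 members called. JQ1 with sgRNA gave 2 of 10, CCND1 and CCNE2, both lower, where 14.2% of all genes were called. JQ1-FCPF without sgRNA gave 0 of 10 by edgeR and 0 by DESeq2, with 0 members at an unadjusted p under 0.05, where 0.00644% of all genes were called. JQ1-FCPF with sgRNA gave 2 of 10, again CCND1 and CCNE2, both lower, where 7.21% of all genes were called. These 4 comparisons share the 3 control libraries. Fewer cells that express a gene and less of its RNA per cell cannot be told apart in RNA from whole cultures.

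**Figure D2:**
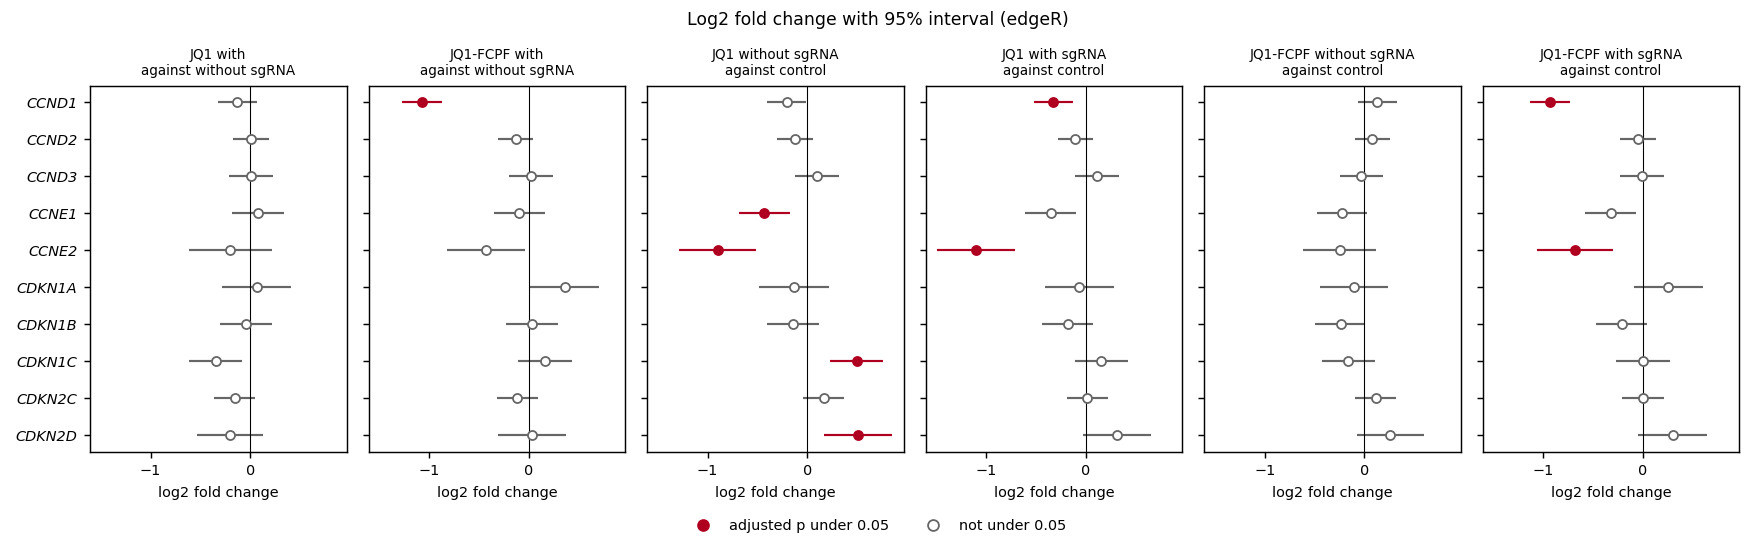
Log2 fold change of each gene with its 95% interval from edgeR in 6 comparisons; filled red points have an adjusted p under 0.05. CCND1 stands at -1.07 for JQ1-FCPF with against without sgRNA, CCNE2 at -0.90 for JQ1 without sgRNA against control, and no point is filled for JQ1-FCPF without sgRNA against control.

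CCND1, the D cyclin gene induced by many growth signals, had 55.9, 56.2 and 53.2 CPM in the 3 libraries of JQ1-FCPF without sgRNA and 26.4, 26.9 and 25.7 CPM in those with sgRNA. Every library with sgRNA was far below every library without it, and the SD of the sgRNA group was 0.592 CPM. The log2 fold change was -1.07 (SE 0.10, 95% interval -1.27 to -0.87), that is 2.09-fold lower, with an adjusted p of 3.67e-07. Under the 12 alternatives it lay between -1.09 and -1.05 and stayed called. After JQ1, CCND1 had 47.5, 40.3 and 43.0 CPM without sgRNA and 36.5, 42.5 and 41.1 CPM with it, and these groups overlapped. That log2 fold change was -0.13 (interval -0.32 to 0.07, adjusted p = 0.733). The interaction was -0.94 (SE 0.13, interval -1.22 to -0.66, adjusted p = 0.00134), so the sgRNA effect on CCND1 differed between the compounds.

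In the control libraries CCND1 had 49.7, 48.5 and 52.4 CPM. JQ1-FCPF with sgRNA was 1.91-fold lower than this (log2 -0.93, interval -1.13 to -0.73, adjusted p = 1.9e-06). JQ1 with sgRNA was also lower, by a smaller amount (1.26-fold, log2 -0.33, interval -0.52 to -0.13, adjusted p = 0.0241), and all 3 of its libraries lay below all 3 controls. That call was lost without the filter on low counts (adjusted p = 0.0672), without control replicate 1 (0.0542) or 3 (0.104) and without JQ1 with sgRNA replicate 1 (0.0702). Against the control, CCND1 stood at a log2 fold change of -0.20 after JQ1 without sgRNA (interval -0.40 to -0.01, adjusted p = 0.158). All 3 libraries of JQ1 without sgRNA also lay below all 3 controls. After JQ1-FCPF without sgRNA the log2 fold change was 0.13 (interval -0.06 to 0.33, adjusted p = 1.0).

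LTO1, the antisense neighbour of CCND1, had 35.8 ± 3.67 CPM after JQ1-FCPF without sgRNA and 28.6 ± 5.27 with it (log2 -0.32, interval -0.59 to -0.05, adjusted p = 0.158). Its interaction was -0.37 (adjusted p = 0.383). Of the marker lists, the 3 fibroblast genes summed to between 4.25 and 6.67 CPM in the libraries of JQ1-FCPF with sgRNA and between 1.91 and 2.18 CPM without it. With sgRNA, COL1A1 carried this sum at 4.86 ± 1.11 CPM, while COL1A2 and DCN stood at 0.0773 ± 0.0766 and 0.195 ± 0.165 CPM. The 3 fibroblast genes summed to between 1.65 and 3.31 CPM in the control. After JQ1 they summed to between 3.3 and 3.33 CPM without sgRNA and between 3.37 and 4.39 CPM with it. The part of these genes in the fall of CCND1 was not tested.

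With all 15 libraries in the fit, CCND2 and CCND3 were not called in any of the 9 comparisons. CCND2, the D cyclin that responds to cytokine signals in blood cells, ranged over all libraries from 141 to 173 CPM. Its log2 fold change for JQ1-FCPF with against without sgRNA was -0.13 (interval -0.31 to 0.04). CCND3, the D cyclin of maturing blood lineages, ranged from 341 to 442 CPM, and its log2 fold change in that comparison was 0.02 (interval -0.20 to 0.24). These intervals exclude a change as large as that of CCND1. The share of CCND1 in the summed D cyclin level per kilobase went from 11.6 ± 0.738% after JQ1-FCPF without sgRNA to 5.99 ± 0.325% with it. The sum itself was 98.2 ± 3.71 and 91.1 ± 4.9 CPM per kilobase in these groups, since CCND3 made up 64.7 ± 0.713% and 70.8 ± 0.699% of it. In the control the share of CCND1 was 10.7 ± 0.624%.

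CCNE2, on the minus strand of chromosome 8 (94879770 to 94896678), encodes an E cyclin that activates CDK2 at the start of S phase. It was lower after JQ1 whether or not sgRNA was present. It had 9.16, 9.37 and 8.46 CPM in the control, 5.26, 5.43 and 3.71 CPM after JQ1 without sgRNA, and 4.77, 4.06 and 3.73 CPM after JQ1 with sgRNA. All 6 JQ1 libraries lay below all 3 controls. The log2 fold changes were -0.90 without sgRNA (SE 0.19, interval -1.29 to -0.51, adjusted p = 0.00523) and -1.10 with it (SE 0.19, interval -1.49 to -0.71, adjusted p = 0.00148). Both stayed called under their 12 alternatives each. The level was low, between 49 and 151 counts per library. INTS8, which overlaps CCNE2 on the other strand, was not called in any comparison and had 72.5 ± 1.55 CPM in the control against 77.0 ± 5.82 and 71.0 ± 7.59 after JQ1 without and with sgRNA.

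After JQ1-FCPF, CCNE2 had 9.29, 6.99 and 6.31 CPM without sgRNA and 6.28, 4.49 and 6.02 CPM with it. The libraries with sgRNA lay below all controls, at a log2 fold change of -0.68 (interval -1.06 to -0.30, 1.60-fold lower, adjusted p = 0.0265). The call was lost with only the 2 groups in the fit (adjusted p = 0.0574), without control replicate 1 (0.0761), 2 (0.0837) or 3 (0.0656) and without JQ1-FCPF with sgRNA replicate 2 (0.0887). The libraries with and without sgRNA did not overlap, but their difference did not pass the test (log2 -0.43, interval -0.82 to -0.04, adjusted p = 0.18). For CCNE2 the interaction was -0.23 (interval -0.80 to 0.33, adjusted p = 0.736).

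CCNE1, the more abundant E cyclin gene, had 34.1, 36.2 and 37.4 CPM in the control and 26.6, 30.8 and 22.5 CPM after JQ1 without sgRNA. The groups did not overlap, and the level was 1.35-fold lower (log2 -0.43, interval -0.69 to -0.17, adjusted p = 0.0283). This call was lost without control replicate 1 (adjusted p = 0.0523), 2 (0.0652) or 3 (0.121) and without JQ1 replicate 1 (0.0851) or 3 (0.153). After JQ1 with sgRNA, CCNE1 had 25.6, 28.7 and 30.0 CPM, also below all controls, but did not pass (log2 -0.35, interval -0.61 to -0.10, adjusted p = 0.0558). DESeq2 (adjusted p = 0.0422) and a fit of only these groups (0.0406) called it. JQ1-FCPF gave 34.0, 28.0 and 30.2 CPM without sgRNA and 28.8, 24.9 and 32.3 CPM with it, and neither differed from the control past the threshold (adjusted p = 1.0 and 0.119). Summed per kilobase, the E cyclins stood at 16.1 ± 0.588 CPM in the control, 11.5 ± 1.83 after JQ1 without sgRNA and 12.0 ± 0.751 with it.

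Of the CIP/KIP inhibitors, CDKN1C was higher after JQ1 without sgRNA. This gene encodes p57, an imprinted inhibitor known from development and from quiescent blood stem cells. It had 40.8, 44.6 and 47.0 CPM after JQ1 without sgRNA against 29.5, 34.7 and 29.6 CPM in the control, with no overlap. The log2 fold change was 0.50 (SE 0.13, interval 0.23 to 0.76, 1.41-fold higher, adjusted p = 0.0171). It was lost without control replicate 1 (adjusted p = 0.0712) or 3 (0.0873) and without JQ1 replicate 2 (0.0613) or 3 (0.0708). With sgRNA, JQ1 gave 29.1, 39.3 and 36.0 CPM, which overlapped the control (log2 0.15, interval -0.11 to 0.42, adjusted p = 0.443). The difference between JQ1 with and without sgRNA did not pass (log2 -0.34, interval -0.61 to -0.08, adjusted p = 0.573), nor did the interaction (0.50, interval 0.12 to 0.88, adjusted p = 0.22). After JQ1-FCPF, CDKN1C had 25.1, 29.9 and 28.9 CPM without sgRNA and 28.1, 37.2 and 28.3 CPM with it.

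CDKN1A, which encodes p21 and is a target of p53, was not called in any comparison of all 15 libraries. It had 17.6, 16.1 and 16.2 CPM after JQ1-FCPF without sgRNA and 22.1, 14.3 and 27.1 CPM with it. The lowest of these belonged to replicate 2, the library that stood apart on the first principal component, and the other two were above all libraries of every other group. The log2 fold change was 0.36 (interval 0.01 to 0.70, adjusted p = 0.217). Without that library it was 0.57 and passed (adjusted p = 0.0087). Without it the comparison of JQ1-FCPF with sgRNA with the control also passed (log2 0.48 in place of 0.25, adjusted p = 0.0274 in place of 0.396). What set that library apart was not tested. CDKN1B, which encodes p27, ranged from 26.7 to 39.4 CPM over all libraries and was not called in any comparison. Its log2 fold change for JQ1-FCPF with against without sgRNA was 0.03 (interval -0.23 to 0.29).

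Of the INK4 inhibitors, CDKN2D, which encodes p19INK4d, was higher after JQ1 without sgRNA. It had 8.06, 7.70 and 8.33 CPM there against 4.77, 6.48 and 5.68 CPM in the control, with no overlap. The log2 fold change was 0.51 (SE 0.16, interval 0.17 to 0.85, 1.43-fold higher, adjusted p = 0.0428), close to the threshold. The call was lost in 7 of 12 alternatives: in DESeq2 (adjusted p = 0.0508), without the filter (0.116), without control replicate 1 (0.175) or 3 (0.125) and without JQ1 replicate 1 (0.111), 2 (0.0944) or 3 (0.119). Its counts were few, between 75 and 127 per library. With sgRNA, JQ1 gave 5.76, 7.46 and 7.77 CPM (log2 0.31, interval -0.03 to 0.65, adjusted p = 0.203). Without the 2 libraries that stand apart this was 0.44 (adjusted p = 0.041). CDKN2C ranged from 67.1 to 86.7 CPM and was not called in any comparison, with a log2 fold change of 0.17 (interval -0.04 to 0.37) for JQ1 without sgRNA against control.

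The compounds were compared directly at the same dose of 1 µM and the same time of 1 h, as 1 pair under 2 conditions, with p-values adjusted over all tested genes. Without sgRNA, 3 of 10 members differed, where 7.80% of all genes did. CCND1 was 1.26-fold higher after JQ1-FCPF than after JQ1 (log2 0.34, interval 0.14 to 0.53, adjusted p = 0.0338) and CCNE2 was 1.57-fold higher (log2 0.65, interval 0.26 to 1.05, adjusted p = 0.0389). CDKN1C was 1.58-fold lower (log2 -0.66, interval -0.93 to -0.39, adjusted p = 0.00846). The CCND1 call was lost without the filter on low counts (adjusted p = 0.091) and when any 1 of the 6 libraries was left out, with adjusted p from 0.0546 to 0.164. The CCNE2 call was also lost when any 1 of them was left out, with adjusted p from 0.0653 to 0.168, and that of CDKN1C without JQ1 replicate 2 (0.0511). The other 7 members were not called. CCND2 stood at a log2 fold change of 0.20 (interval 0.03 to 0.38, adjusted p = 0.139), and passed with only these groups in the fit (0.0457) and with the 2 libraries that stand apart left out (0.0397). For CCND3 the interval of the difference was -0.35 to 0.09 and for CDKN1B -0.36 to 0.16. With sgRNA, 1 of 10 members differed, where 2.95% of all genes did. CCND1 was 1.52-fold lower after JQ1-FCPF than after JQ1 (log2 -0.60, interval -0.80 to -0.40, adjusted p = 0.00121), and no library of one group reached the other. With only these 2 groups in the fit its adjusted p was 0.125. Without the 2 libraries that stand apart 5 members were called, CCND1 and also CCND3 (-0.26, adjusted p = 0.0439), CCNE2 (0.67, 0.024), CDKN1A (0.49, 0.00927) and CDKN1C (-0.40, 0.0123), each as log2 fold change and adjusted p. CDKN1A also passed without JQ1-FCPF with sgRNA replicate 2 alone (0.54, adjusted p = 0.00674). CCND1 thus stood higher after JQ1-FCPF than after JQ1 where sgRNA was absent and lower where it was present, and the interaction given above tests that difference. These comparisons share libraries with those of the sgRNA.

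Beyond the 10 members, 47 genes of the same pathway were taken in 5 lists, of which 44 genes were tested. Across the 9 comparisons, edgeR called between 0.00644% and 14.2% of all tested genes per comparison. The retinoblastoma family and its partners (RB1, RBL1, RBL2 and 5 DREAM subunits) gave 0 calls by edgeR in these comparisons. Unadjusted, 4 of their 72 tests had a p under 0.05, where between 285 and 4671 of all 15517 genes did per comparison. DESeq2 made 3 calls among them. Of 9 G1 kinases and activators, 0 were called for the sgRNA effect of either compound, where 6.25% of all tested genes were called for JQ1-FCPF and 0.0129% for JQ1. Against the control 2 were called, where the share of all genes was between 0.00644% and 14.2% in the 4 comparisons. Over the 9 comparisons edgeR made 5 calls in 81 tests, beside the shares of all genes given above, and DESeq2 made 9. CDC25A, the phosphatase that activates CDK2, was lower after JQ1 without sgRNA (log2 -0.38, adjusted p = 0.0143), JQ1 with sgRNA (-0.46, 0.00486) and JQ1-FCPF with sgRNA (-0.45, 0.00527). MNAT1, a subunit of the CDK-activating kinase, was higher after JQ1 without sgRNA (0.42, 0.0297) and with it (0.38, 0.0413). The first CDC25A call was lost without control replicate 2 or 3 or JQ1 replicate 2 or 3 (adjusted p 0.0523 to 0.0841). Both MNAT1 calls were lost without control replicate 2 or 3, JQ1 replicate 2 or 3 of the group concerned, or the filter (0.0536 to 0.188). Of 13 genes for the degradation of G1 cyclins and inhibitors, SKP1, a core subunit of SCF ubiquitin ligases, was higher after JQ1-FCPF with than without sgRNA (0.47, adjusted p = 0.0318). That call was lost with only these groups in the fit, without JQ1-FCPF without sgRNA replicate 2 or 3 and without JQ1-FCPF with sgRNA replicate 1 or 3 (0.0596 to 0.182).

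Among 14 transcription factors known to act on these genes, 3 were lower and 0 higher after JQ1-FCPF with than without sgRNA. Of all tested genes 6.25% were called there, 651 lower and 319 higher. This list, like the others, was chosen with earlier results of these data known. MYC, which represses CDKN1A, had 197, 136 and 171 CPM without sgRNA and 60.2, 57.3 and 61.0 CPM with it, and was 2.83-fold lower (log2 -1.50, SE 0.14, adjusted p = 3.67e-07). HES1, a Notch target gene whose product represses CDKN1B, had 62.4, 73.2 and 72.1 CPM without sgRNA and 14.9, 14.0 and 15.5 CPM with it, and was 4.67-fold lower (log2 -2.22, SE 0.13, adjusted p = 1.38e-09). Neither pair of groups overlapped, as for CCND1. GFI1B, an erythroid and megakaryocytic repressor, had 92.4, 96.7 and 104 CPM without sgRNA and 37.2, 88.3 and 47.2 CPM with it (log2 -0.76, adjusted p = 0.0208). The call on GFI1B was lost in 6 of 12 alternatives: DESeq2, only these groups in the fit, and without JQ1-FCPF without sgRNA replicate 2 or 3 or JQ1-FCPF with sgRNA replicate 1 or 3 (adjusted p 0.0553 to 0.123). Without JQ1-FCPF with sgRNA replicate 2 the value was -1.20 (adjusted p = 1.49e-06), and without both libraries that stand apart -1.20 (3.6e-10). After JQ1, HES1 was lower with than without sgRNA as well (log2 -0.84, adjusted p = 0.00855). That call was lost with only these groups in the fit and without JQ1 without sgRNA replicate 1 or 3 or JQ1 with sgRNA replicate 1 (0.0515 to 0.174). The interactions were -1.38 for HES1 (adjusted p = 0.0012) and -1.24 for MYC (adjusted p = 0.00187).

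Against the control, HES1 and MYC were lower after JQ1-FCPF with sgRNA (log2 -2.38, adjusted p = 2.22e-10, and -1.73, 4.37e-08) and after JQ1 with sgRNA (-1.07, 8.04e-05, and -0.63, 0.00486). STAT5B, which carries cytokine and BCR-ABL signals, was higher after JQ1 without sgRNA (0.59, adjusted p = 0.0201) and with it (0.72, 0.00654). After JQ1 without sgRNA GFI1B was higher (0.73, 0.0179), and after JQ1 with sgRNA BCL6, a repressor of CCND2, was higher (1.19, 0.0119). The STAT5B call without sgRNA was lost without control replicate 1 or 3 or JQ1 replicate 2 or 3 (0.0584 to 0.0813), and that of GFI1B when any 1 library other than control replicate 2 was left out (0.0511 to 0.0784). The BCL6 call was lost without control replicate 2 or 3 or JQ1 with sgRNA replicate 1 (0.0615 to 0.064). Between the compounds with sgRNA, HES1 (-1.31), MYC (-1.10) and GFI1B (-0.98) were lower after JQ1-FCPF, with adjusted p of 9.64e-06, 8.14e-05 and 0.00816, and without sgRNA STAT5B was lower (-0.53, 0.0453). Of these, GFI1B was not called with only these groups in the fit or without JQ1-FCPF with sgRNA replicate 1 or 3 (0.0677 to 0.244). Its log2 fold change was -1.53 (adjusted p = 1.71e-11) without the 2 libraries that stand apart and -1.41 (1.6e-07) without JQ1-FCPF with sgRNA replicate 2 alone. STAT5B was not called when any 1 of its 6 libraries was left out (0.0827 to 0.151).

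The genes most like the 3 members with the smallest p were found by Pearson's r of log2 CPM over the 15 libraries, among 10283 genes with a mean of at least 5 CPM. These values describe libraries that share groups and depth. For CCND1 they were LPAR5 (r = 0.954), a lysophosphatidic acid receptor gene, LMO2 (0.950), an adaptor of blood transcription factors, and FOXA2 (0.946). LPAR5 had 20.2 CPM after JQ1-FCPF without sgRNA and 6.09 with it, LMO2 67.9 and 40.4, and FOXA2 9.47 and 1.71. For CCNE2 they were TAF5L (r = 0.971), ZNF189 (0.959) and WDR43 (0.922), which stood at 45.0, 12.2 and 118 CPM in the control and at 32.6, 6.93 and 93.0 CPM after JQ1 without sgRNA. For CDKN1C they were EMC7 (0.911), DHRS7 (0.905) and RRAS (0.905). In this order they stood at 167, 27.0 and 19.7 CPM in the control and at 205, 34.8 and 34.7 CPM after JQ1 without sgRNA.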

How the data were processed

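Raw read counts per gene, deposited as 1 table for each of 15 libraries, were used, in the column layout of a feature counter per the file headers. Per the labels' protocols, RNA was extracted with Trizol and sequenced by Azenta. Which aligner, genome build and annotation were used, and whether counting used strand, is not given in the sources used here. By identifier, 56898 genes were found in GENCODE 29, 96.3% with the same span, so coordinates are GRCh38. The counts were fitted in edgeR 4.0.16 (R 4.3.3) with filterByExpr, TMM scaling, 1 mean per group over all 5 groups, the quasi-likelihood test and Benjamini-Hochberg adjustment over 15517 genes, at a threshold of 0.05 (common biological coefficient of variation 11.1%). CPM are scaled counts computed here, and CPM per kilobase divides them by the exon length in the files. With totals between 12625669 and 17544518 counts per library, counting error matters most for CCNE2 and CDKN2D. The test was checked on simulated data.

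Groups came from the labels, and replicate numbers follow the letters of the titles. Deviations from the group means had a median r of -0.01 between libraries with the same letter and of 0.02 between other letters. The 30 same-letter pairs ran from -0.24 to 0.31, with 4 over 0.1. With 3 libraries per group this cannot show whether the letter pairs libraries, which no label states. No 2 libraries were identical, and the chi-square per degree of freedom within a group was between 2.96 and 48.9.

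The members and the lists were chosen with earlier results of these data known. Named genes are all members, up to 4 called genes with the smallest p from the pathway lists in each comparison, and the 3 genes most like each of the 3 members with the smallest p. LTO1, INTS8 and marker genes are given as overlapping or other-cell genes. Alternatives were DESeq2 1.42.0, its size factors in edgeR, no filter on low counts, the title letter as a replicate block, only the groups compared in the fit, leaving out the 2 libraries that stand apart, and leaving out each library.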

Additional observations from a re-analysis of the deposited data

Results flagged for a closer look

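The difference between the sgRNA effect under JQ1-FCPF and that under JQ1 passed edgeR's test for CCND1 among the members, with a log2 value of -0.94, and for 2 genes of the pathway lists, HES1 at -1.38 and MYC at -1.24. In all 3 the log2 fold change with sgRNA was more negative under JQ1-FCPF than under JQ1, and each stayed called under 18 alternatives. The interaction was one of the planned comparisons, but the members and the lists were chosen with earlier results of these data known.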

How the results depend on the processing

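Of the 90 member results (10 genes in 9 comparisons), 23 were called with all libraries or under an alternative, and none of these changed sign. Of the other 67, 23 changed sign under at least 1 alternative, all with a log2 size of at most 0.23 in the reported fit. Under the alternatives their log2 values lay between -0.34 and 0.21. Among those given above for JQ1-FCPF with against without sgRNA, CCND3 was -0.01 and CDKN1B -0.10 without the 2 libraries that stand apart, and leaving out 1 library gave between -0.02 and 0.07 and between -0.10 and 0.17. The interaction for CCNE2 was 0.01 without the 2 libraries. With the replicate block, the number of members called was the same in all 9 comparisons, and over all genes 833 were called for JQ1-FCPF with against without sgRNA in place of 970. Leaving out 1 library gave between 1 and 2 members for that comparison, 0 for JQ1 with against without sgRNA, 1 for the interaction, between 1 and 3 for JQ1 without sgRNA against control (4 with all libraries), between 1 and 2 for JQ1 with sgRNA, 0 for JQ1-FCPF without sgRNA and between 1 and 2 for JQ1-FCPF with sgRNA against control. Between the compounds it gave between 1 and 2 with sgRNA and between 0 and 1 without sgRNA (3 with all libraries). Without the 2 libraries that stand apart, members called were 2 for JQ1-FCPF with against without sgRNA, 3 for JQ1 with sgRNA against control, 3 for JQ1-FCPF with sgRNA against control and 5 between the compounds with sgRNA. With only the groups compared in the fit, members called were 1 for JQ1-FCPF with sgRNA against control and 0 between the compounds with sgRNA, and without the filter 1 for JQ1 with sgRNA against control. Over all genes, in the order JQ1-FCPF and JQ1 with against without sgRNA, interaction, JQ1 without and with sgRNA against control, JQ1-FCPF without and with sgRNA against control, and the compounds with and without sgRNA, the groups-only fit called 351, 0, 81, 4521, 2056, 2, 543, 11 and 2959 genes. The fit without the 2 libraries called 1600, 9, 511, 4234, 3582, 4, 1745, 3176 and 3554. Leaving out 1 library called between 428 and 1129, 0 and 3, 50 and 346, 430 and 1338, 726 and 1858, 1 and 1, 542 and 1201, 68 and 2757, and 76 and 973. Without the filter, 80 genes were called for JQ1 with against without sgRNA, 316 for the interaction and 822 between the compounds with sgRNA. DESeq2 called 5 for JQ1 with against without sgRNA, 255 for the interaction and 2 for JQ1-FCPF without sgRNA against control. Apart from the smaller number of libraries in some fits, the cause was not tested. Depth limits CCNE2 and CDKN2D, which had as few as 49 and 75 counts in a library.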
